A study of Caenorhabditis elegans with 12 samples.

Results

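Young adult worms exposed to ultraviolet light (UV) together with titanium dioxide (TiO2) were compared with worms exposed to neither, using 6 of the 12 expression arrays of the study. The members of the comparison are the 3 arrays labelled UV+TiO2 and the 3 titled Con, called Control here. All worms were wild-type Caenorhabditis elegans hermaphrodites, 3 days old, and both groups spent 24 h unfed in the salt solution k-media at 20 °C. UV+TiO2 worms were irradiated for 4 h in the presence of TiO2 and spent the other 20 h in the same incubator as the rest. Control worms received neither agent. The other 6 arrays, 3 of worms given UV alone and 3 of worms given TiO2 alone, entered the fit for its estimate of spread, and the UV arrays were also set against UV+TiO2. The TiO2 dose and the kind and intensity of UV are not given in the sources used here.

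Ultraviolet light damages DNA directly, through bonds between neighbouring pyrimidines, and also gives rise to oxidants. TiO2 is a photocatalyst: light excites it, and oxidants form at its surface. Worm cells answer such damage with nucleotide excision repair and checkpoint signalling, with chaperones, and with detoxification and redox enzymes, many of them made in the intestine. In adult hermaphrodites the soma no longer divides, and the germ line is the main dividing tissue.

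RNA came from whole worms, 300 ng per array. Values are log2 expression values on the scale of robust multi-array averaging (RMA), where a difference of 1 is 2-fold. Array medians lay between 6.41 and 6.48 in UV+TiO2 and between 6.55 and 6.63 in Control. The median standard deviation (SD) between the 3 arrays of a group was 0.0933 in UV+TiO2 and 0.177 in Control. Correlations over probe sets, whose values do not count as replicates, were 0.997 within UV+TiO2, 0.987 to 0.993 within Control, and 0.931 to 0.944 from UV+TiO2 to Control. Whether a group's 3 arrays stem from separate cultures is not stated in the labels, so the spread behind each p-value may be no more than technical.

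Markers of the adult hermaphrodite were present in both groups. The array means of 9 adult soma markers (the adult collagen col-19, yolk proteins and adult cuticle collagens) lay between 11.22 and 11.33 in UV+TiO2 and between 10.39 and 10.64 in Control, with 5 members higher and 2 lower, or 1 lower without UV+TiO2 replicate 2 or Control replicate 1. Oocyte markers averaged 12.47 to 12.50 in UV+TiO2 and 12.37 to 12.42 in Control, and sperm markers 9.78 to 10.12 in UV+TiO2 and 8.31 to 9.01 in Control. Embryo markers, which eggs inside the mothers can supply, averaged 6.66 to 6.72 in UV+TiO2 and 6.73 to 6.88 in Control, and 10 of 30 were higher and 10 lower. Small marker sets of differentiated tissues had lower means in UV+TiO2. The 3 intestinal markers averaged 6.83 to 7.05 in UV+TiO2 and 8.48 to 8.66 in Control, and the 2 pharyngeal markers 8.01 to 8.15 in UV+TiO2 and 9.46 to 9.71 in Control, all of them lower. The 2 body wall muscle markers, both lower, averaged 9.87 to 9.98 in UV+TiO2 and 10.36 to 10.69 in Control. The 3 neuron markers averaged 6.61 to 6.71 in UV+TiO2 and 7.21 to 7.42 in Control, with 2 lower and 1, unc-31, higher. In whole-worm RNA, fewer cells of a type and less RNA per cell cannot be told apart. What part the make-up of the samples had in the gene results was not tested.

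Most probe sets differed. Of 22548 probe sets, 12289 (54.5%) passed limma's moderated test at an adjusted p under 0.05, 7197 of them higher in UV+TiO2 (31.9%) and 5092 lower (22.6%). The direction turned over with size, since 645 probe sets were at least 2-fold higher (2.86%) and 2251 at least 2-fold lower (9.98%). After median centring of the arrays the counts were 11811 higher and 4339 lower, and higher calls made up 73.1% of all calls against 58.6% without centring. The median difference over all probe sets was 0.15, and 0.28 after centring. With 1 probe set for each of 17118 genes, 5550 genes were higher (32.4%) and 3792 lower (22.2%), which is the background for every count of genes below, and the median difference was 0.15. At least 2-fold, 484 genes were higher (2.83%) and 1704 lower (9.95%). At least 8-fold, 14 were higher and 149 lower, and at least 32-fold, 1 was higher and 8 lower. All 3 UV+TiO2 arrays lay above all 3 Control arrays for 6356 genes (37.1%) and below them for 4099 (23.9%).

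The falls came from genes with middle and high Control levels. When the genes were divided into 5 equal classes by Control mean, the lowest class held 18 genes at least 2-fold higher and 1 at least 2-fold lower in UV+TiO2, and the next held 82 and 38. The middle class held 145 and 340, the fourth 159 and 779, and the highest 80 and 546. Control means of the lowest class lay close to the floor of the array's scale, so falls could hardly be measured there. The Control mean also enters each difference. Sorting by it moves fallen genes toward the higher classes and risen genes toward the lower ones, so part of this pattern follows from the division. Median differences in the 5 classes ran 0.16, 0.25, 0.09, −0.02 and 0.09.

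**Figure D1:**
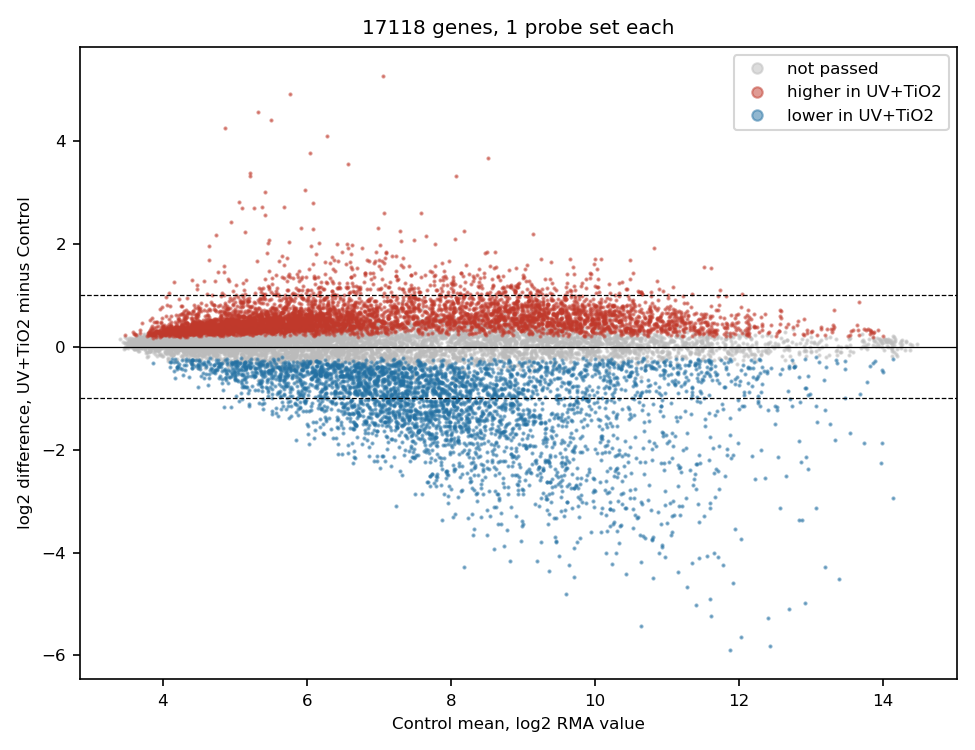
Log2 difference between UV+TiO2 and Control (vertical axis) against the mean Control level (horizontal axis, log2 RMA value) for 17118 genes with 1 probe set each, coloured by limma's call. The dashed lines mark 2-fold. Falls past 2-fold (1704 genes) reach further and are more numerous than rises past 2-fold (484 genes).

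The 12 largest rises included an infection response gene, a yolk protein gene, an F-box gene and a chondroitin proteoglycan gene, beside 7 genes known only by a sequence name. F59C12.4, on chromosome X, had values of 12.28, 12.25 and 12.46 in UV+TiO2, against 7.26, 7.06 and 6.87 in Control, a 38.5-fold difference (log2 5.27, SE 0.11, adjusted p = 8.79e-12). C49G7.12 had 10.72, 10.64 and 10.65 in UV+TiO2, against 5.96, 5.68 and 5.66 in Control (29.9-fold). The 2 groups were far apart for both genes, and the arrays within each group lay close together. The gene irg-2, which is induced when worms meet pathogens, had 10.05, 9.84 and 9.85 in UV+TiO2, against 5.18, 5.48 and 5.83 in Control (21.3-fold, log2 4.42, SE 0.16, adjusted p = 3.69e-10). K09D9.1 had 9.90, 9.93 and 9.86 in UV+TiO2, against 5.66, 5.12 and 5.20 in Control (23.8-fold). Only genes without overlap of the 2 groups were eligible as largest rises or falls, so that separation is no added support. The yolk protein gene vit-1, made in the adult intestine for export to oocytes, had 12.15, 12.08 and 12.32 in UV+TiO2, against 8.17, 8.67 and 8.70 in Control (12.7-fold, adjusted p = 6.06e-10).

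The F-box gene fbxc-58, of a family of adaptors of ubiquitin ligases, had 9.29, 9.28 and 8.75 in UV+TiO2, against 5.03, 4.64 and 4.91 in Control (19-fold). The chondroitin proteoglycan gene cpg-9 had 8.39, 8.54 and 8.63 in UV+TiO2, against 5.09, 5.36 and 5.16 in Control (9.95-fold). No array of either group reached the other group's range for these genes. The small GTPase gene warf-1, of the Arf family, was 10.4-fold higher. The other 4 largest rises, Y58A7A.5, F22H10.2, C49G7.10 and F53B2.8, had log2 differences of 4.09, 3.77, 3.55 and 3.31. Limma's adjusted p over the 12 rises reached at most 9.45e-09, for C49G7.10.

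**Figure D2:**
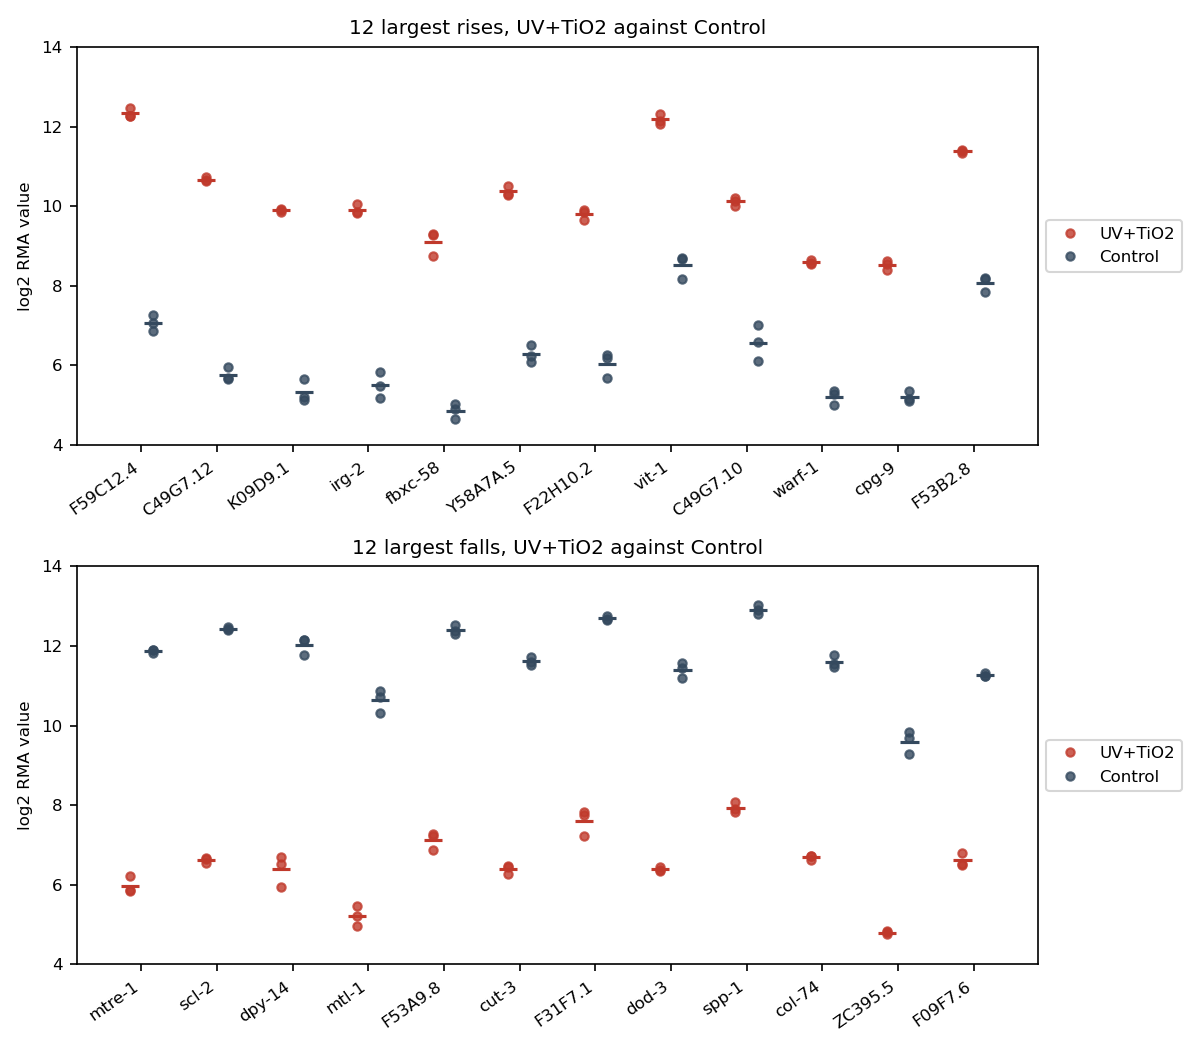
Log2 RMA values (vertical axis) of the 12 genes with the largest rises (upper panel) and the 12 with the largest falls (lower panel), each point 1 array, with UV+TiO2 left of Control and a bar at each mean of 3 arrays. Only genes without overlapping groups were eligible. In UV+TiO2 the fallen genes lie between 4.75 for ZC395.5 and 8.07 for spp-1.

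Several of these genes are neighbours on chromosome V. In the order of the RefSeq annotation of assembly WBcel235, a run of protein-coding genes holds cyp-35A3, K09D9.1, cyp-35A4, C49G7.12, C49G7.10, irg-2, phat-3 and phat-7, with C49G7.7 and C49G7.13 between them not measured by a probe set of their own. Of these 8 measured genes 7 rose: the cytochrome P450 genes cyp-35A3 by 2.29 and cyp-35A4 by 0.86, phat-3, named for its likeness to pharyngeal gland toxins, by 1.69, and the other 4 by 3.55 to 4.90 on the log2 scale. The outer neighbour phat-7 did not pass (−0.13, adjusted p = 0.474). A second run on chromosome V held Y58A7A.3, Y58A7A.4 and Y58A7A.5, with log2 differences of 1.68, 3.02 and 4.09, next to the globin gene glb-32, which did not pass (0.15, adjusted p = 0.337). Such runs were not general: among the 2 protein-coding genes on each side of the 12 largest rises 37 were measured, of which 17 were higher and 11 lower, 7 and 5 of them at least 2-fold. Beside the 12 largest falls 46 were measured, with 14 higher and 13 lower, 1 and 5 at least 2-fold.

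The scl genes on chromosome IV, which encode secreted SCP-like extracellular proteins, gave a run of falls. scl-2 had 6.66, 6.55 and 6.65 in UV+TiO2, against 12.49, 12.39 and 12.42 in Control. That is 56.3-fold lower, with the lowest adjusted p of all probe sets (6.49e-13). The next genes, scl-3 and scl-5, had differences of −0.94 and −3.43, while scl-1 on the other side was 0.54 higher and F49E11.7 beyond it 0.35 higher. Of all 25 measured scl genes only 3 were lower and 8 were higher (median 0.26).

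**Figure D3:**
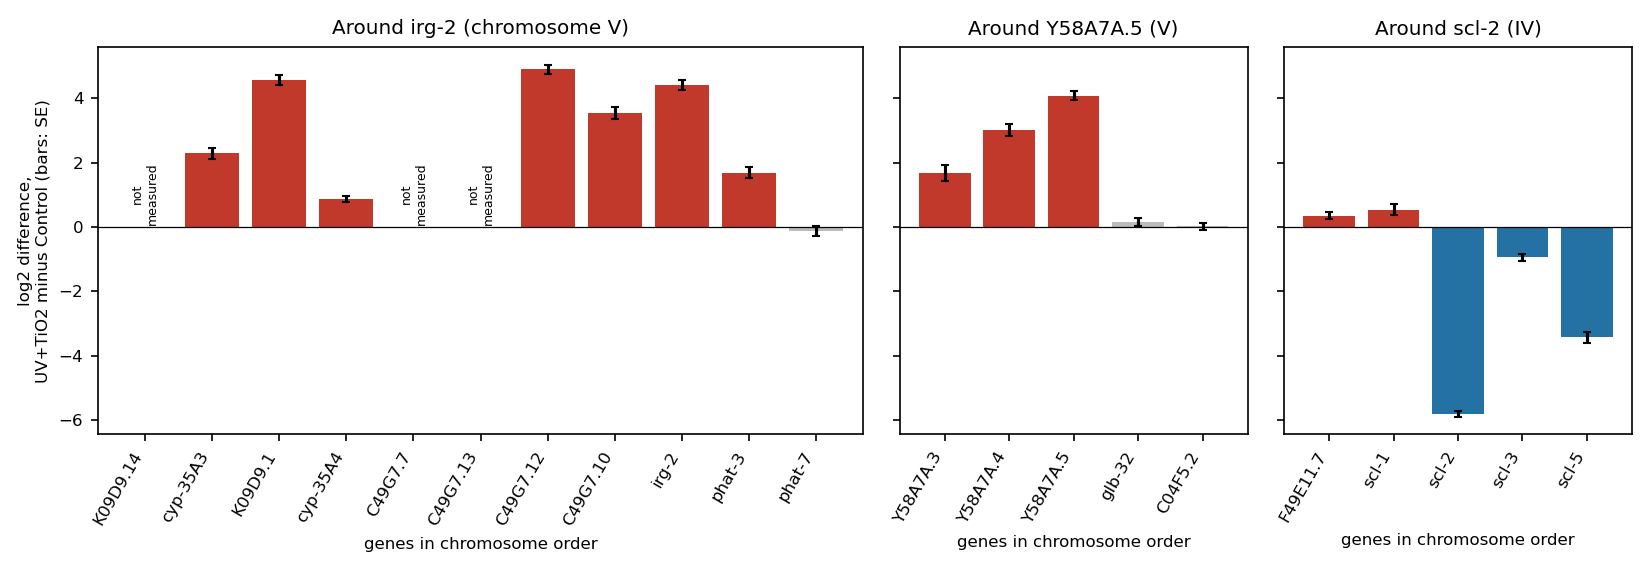
Log2 difference between UV+TiO2 and Control (vertical axis, bars with SE) for runs of neighbouring protein-coding genes around irg-2, Y58A7A.5 and scl-2, in chromosome order. Red bars are higher, blue bars lower and grey bars did not pass. The runs around irg-2 and Y58A7A.5 hold several rises side by side, and scl-2, scl-3 and scl-5 lie side by side among the falls.

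The 12 largest falls lay between −5.90 and −4.66, beside 3.31 to 5.27 for the 12 largest rises. mtre-1 had 6.22, 5.85 and 5.86 in UV+TiO2, against 11.83, 11.90 and 11.91 in Control, 59.7-fold lower (log2 −5.90, SE 0.12, adjusted p = 8.79e-12). The collagen gene dpy-14, of the embryonic and early larval cuticle, had 6.52, 5.95 and 6.71 in UV+TiO2, against 12.15, 12.15 and 11.77 in Control, 49.7-fold lower. For both genes every UV+TiO2 array lay far below every Control array. The probe sets of mtre-1, cut-3, spp-1 (the brighter one), dod-3 and F53A9.8 carry a suffix that can mark sets shared with related sequences. The metallothionein gene mtl-1, whose product binds metal ions, had 5.21, 5.46 and 4.97 in UV+TiO2, against 10.87, 10.71 and 10.33 in Control, 42.9-fold lower. The cuticlin gene cut-3, of the insoluble layer of the cuticle, had 6.27, 6.44 and 6.47 in UV+TiO2, against 11.61, 11.72 and 11.53 in Control. No UV+TiO2 array came near the Control range for either gene. The antimicrobial saposin-like gene spp-1 was 31.6-fold lower by its brighter probe set, while a dimmer probe set of the same gene did not pass (0.10, adjusted p = 0.388). dod-3, named for its place downstream of the insulin pathway factor DAF-16, was 32.5-fold lower and the collagen gene col-74 30.1-fold lower. F53A9.8, F31F7.1, ZC395.5 and F09F7.6 had log2 differences of −5.28, −5.10, −4.80 and −4.66.

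Few genes crossed the whole scale. Only fbxc-58 and warf-1 were among the lowest 30% of each Control array and the highest 30% of each UV+TiO2 array, out of 4593 genes that were low in all Control arrays. The opposite held for 14 of 4748 genes that were high in all Control arrays. The 5 with the largest differences were ZC395.5, F37A8.5 (−4.47), the neuropeptide gene nlp-39 (−4.36), Y73F4A.3 (−4.17) and Y37A1B.7 (−4.16). F37A8.5 had 5.25, 5.28 and 5.18 in UV+TiO2, against 9.57, 9.86 and 9.69 in Control. nlp-39 had 5.23, 4.72 and 5.06 in UV+TiO2, against 9.22, 9.34 and 9.54 in Control. Both groups were tight. The rule by which these genes were picked already requires that the groups do not overlap.

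Gene lists give the breadth of the change. For 76 lists the share of measured genes that passed in each direction was set beside the 32.4% higher and 22.2% lower of all genes. A share near those values says nothing particular of a list.

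**Figure D4:**
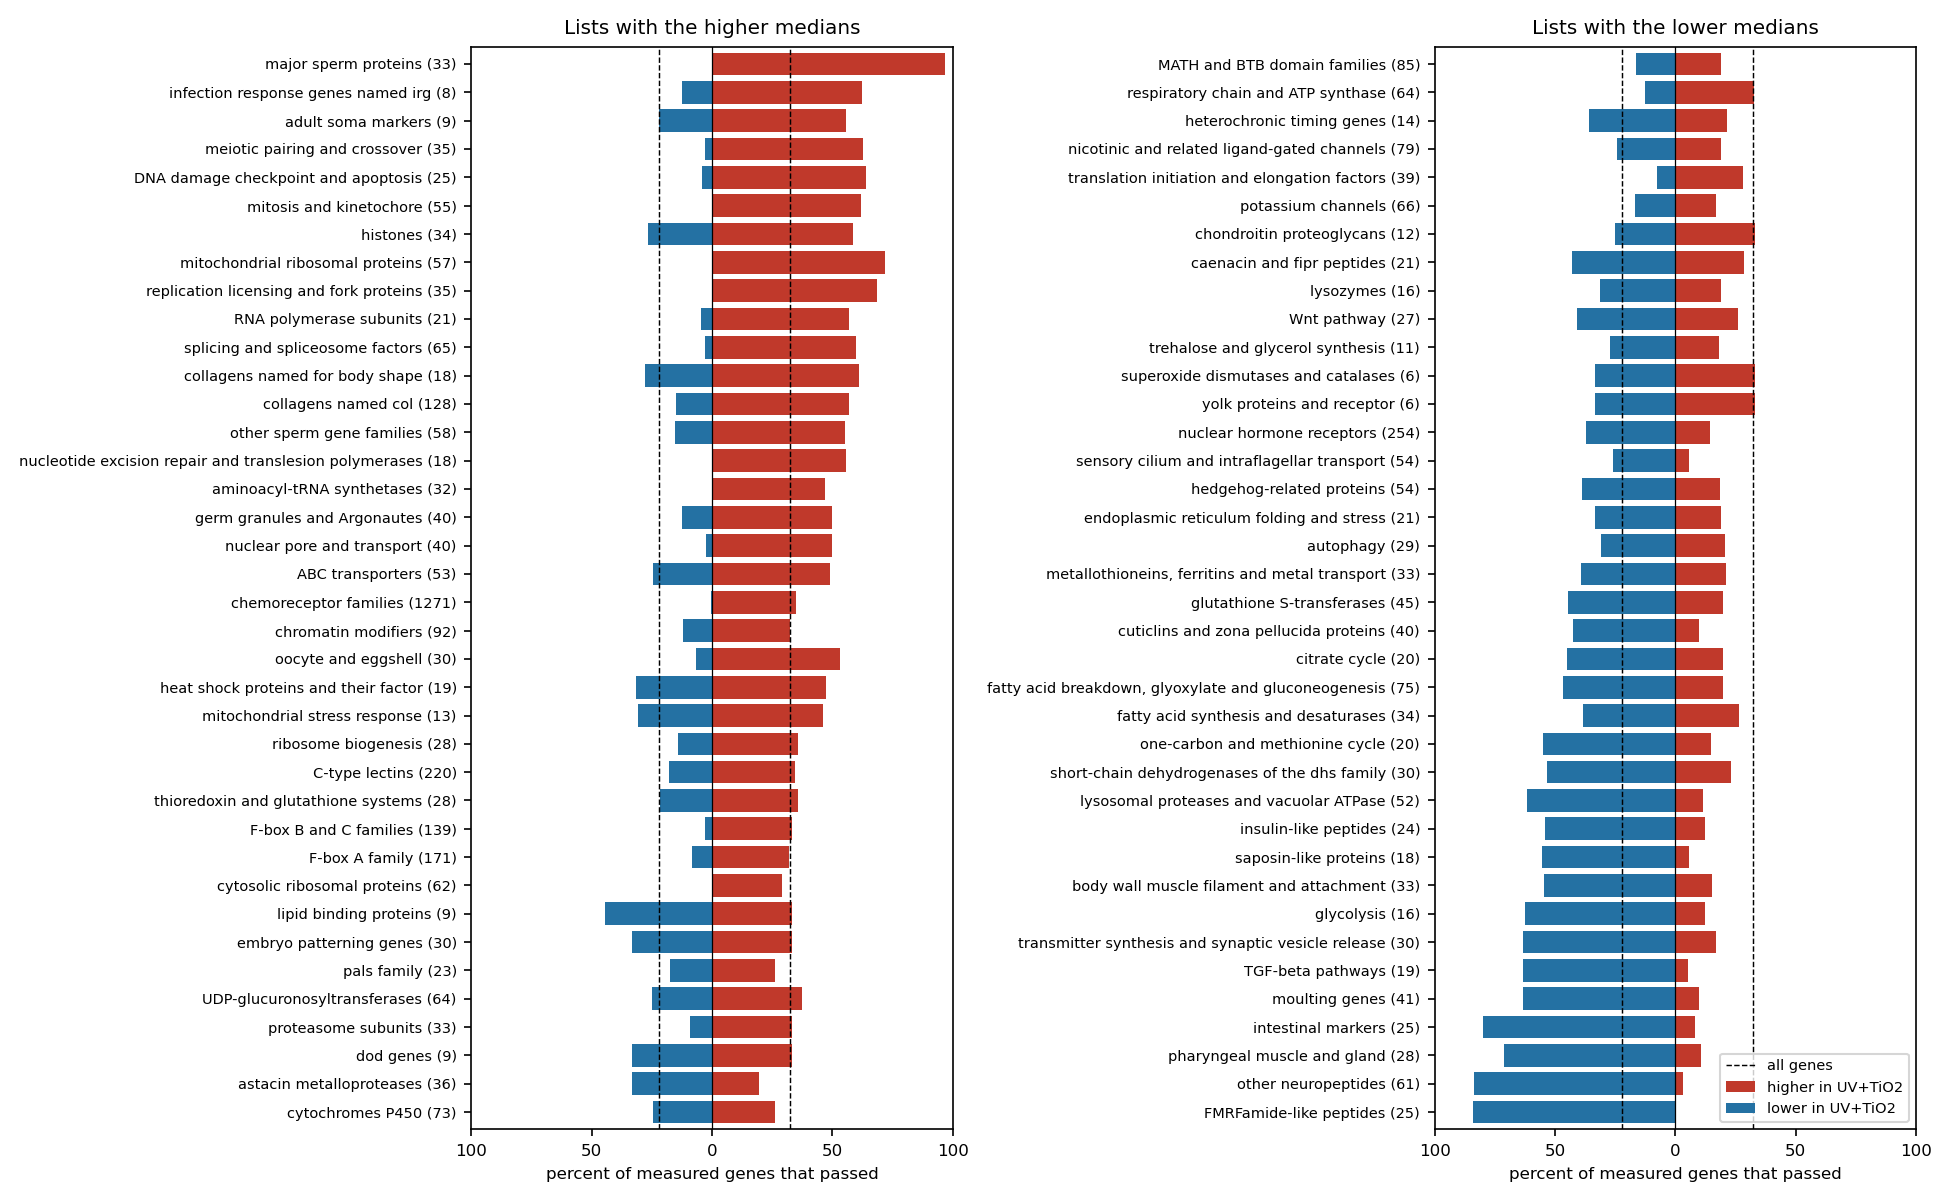
Percent of the measured genes of each list that were higher (red, to the right) or lower (blue, to the left) in UV+TiO2 than in Control, ordered by the list's median difference, with the number measured in brackets. The dashed lines give the shares over all genes, 32.4% higher and 22.2% lower. The major sperm protein, infection response (irg) and adult soma lists stand at one end and neuropeptide, pharyngeal and intestinal lists at the other.

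Heat shock genes moved in both directions. Of 19 measured chaperone genes and their factor 9 rose and 6 fell, with a median difference of 0.22. The inducible chaperone gene hsp-70 had 8.31, 8.12 and 7.84 in UV+TiO2, against 5.76, 5.15 and 5.20 in Control (6.61-fold, adjusted p = 2.76e-07). hsp-16.2, for a small heat shock protein, had 9.57, 9.42 and 9.70 in UV+TiO2, against 7.79, 7.48 and 7.20 in Control (4.21-fold, adjusted p = 3.14e-07), and hsp-16.41 rose by 1.44. These genes stood above Control in every array. The other 2 measured hsp-16 genes did not share the rise: hsp-16.20, added after its values were seen, fell by 1.53, and 1 did not pass. All 4 measured genes of the small hsp-12 family were lower, by −3.78 to −2.48: hsp-12.6 had 5.68, 5.67 and 5.66 in UV+TiO2, against 10.08, 9.20 and 9.09 in Control. The heat shock factor gene hsf-1 rose by 0.45, although its second probe set did not pass (0.03, adjusted p = 0.748).

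Genes of organelle stress moved in both directions. Of 21 genes for folding in the endoplasmic reticulum 4 rose and 7 fell, and the median of −0.11 turned to 0.02 with centring, to 0.01 with quantile normalization and to 0.06 without Control replicate 1. The ER chaperone gene hsp-4 rose by 0.41, the calcium-binding chaperone gene crt-1 fell by 0.68, and ckb-2, a choline kinase gene, rose by 1.13. In the mitochondrial stress response the ubiquitin-like gene ubl-5 rose by 1.83, while dve-1, the gene of a transcription factor of the same response, fell by 2.08 by its brighter probe set. A dimmer dve-1 probe set did not pass (−0.15, adjusted p = 0.329). The mitochondrial chaperone gene hsp-6 did not pass (0.25, adjusted p = 0.0552), and it passed in 5 of the 14 alternatives, with differences between 0.25 and 0.38. Of 33 proteasome subunit genes 11 rose and 3 fell, none by 2-fold. The 6 rises among 13 mitochondrial stress genes became 3 and 1 without UV+TiO2 replicate 1 or 2, and 2 and 3 without Control replicate 2 or 3, and its 4 falls became as few as 2 without UV+TiO2 replicate 2 or 3. Proteasome falls likewise became as few as 1 without UV+TiO2 replicate 1 or 2 or Control replicate 2.

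Antioxidant genes fell more deeply than they rose. The catalase gene ctl-2 had 7.25, 6.92 and 7.18 in UV+TiO2, against 9.75, 9.80 and 9.81 in Control (6.37-fold lower, adjusted p = 4.69e-10), and the glutathione peroxidase gene gpx-5 fell by 2.80. Neither group overlapped the other for these genes. The mitochondrial superoxide dismutase gene sod-3 did not pass (0.00 in size, adjusted p = 0.986), with group means of 5.71 in UV+TiO2 and 5.71 in Control. Of 6 superoxide dismutase and catalase genes 2 rose and 2 fell, and 1 instead of 2 rose without UV+TiO2 replicate 1, 2 or 3 or Control replicate 2 or 3. The extracellular superoxide dismutase gene sod-4 fell by 0.85. In the thioredoxin and glutathione systems 10 of 28 rose and 6 fell, and without UV+TiO2 replicate 1 or 2 or Control replicate 3 the rises went down to as few as 5. The thioredoxin gene trx-3 fell by 1.52 and the glutaredoxin gene glrx-21 rose by 0.55. gcs-1, for the first step of glutathione synthesis, did not pass (−0.21, adjusted p = 0.0594), and its dimmer probe set was higher (0.45, adjusted p = 0.0488).

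Detoxification families held both risen and fallen genes. Among 45 glutathione S-transferase genes 20 fell and 9 rose, with 8 falls and 2 rises of at least 2-fold. gst-4, a common reporter of the oxidative stress factor SKN-1, had 7.94, 8.26 and 8.42 in UV+TiO2, against 7.05, 6.79 and 6.85 in Control (2.48-fold, adjusted p = 3.95e-06). gst-24 rose by 1.25, while gst-20, gst-13 and gst-42 fell by 2.78, 2.01 and 1.72. So the reporter gene moved against most of the called members of its family. The factor's own gene skn-1 was 0.56 higher on its brightest probe set (adjusted p = 0.0181) and lower on another (−0.39, adjusted p = 0.00985), while a further probe set did not pass. Without UV+TiO2 replicate 3 or Control replicate 1, 5 transferases rose. Of 73 cytochrome P450 genes 19 rose and 18 fell, and 7 of 10 genes of the cyp-35 family, which foreign compounds induce, rose. cyp-35A2 had 8.78, 8.83 and 9.14 in UV+TiO2, against 7.07, 7.34 and 6.87 in Control (3.53-fold), and cyp-35C1 rose by 2.03. cyp-37B1 and cyp-34A9 fell by 2.80 and 2.77. Of 64 UDP-glucuronosyltransferase genes, whose enzymes attach a sugar acid to toxins, 24 rose and 16 fell, led by ugt-28 (2.31) and ugt-24 (2.00) upward and ugt-12 (−2.31) and ugt-50 (−2.06) downward. Among 53 ABC transporter genes 26 rose and 13 fell, from pgp-3 (1.80), a P-glycoprotein of the intestine, to haf-4 (−2.63), of intestinal lysosome-related granules. Short-chain dehydrogenase genes of the dhs family were mostly lower (16 of 30 fell, 7 rose), with dhs-18 at −3.70 and dhs-28, of peroxisomal fatty acid breakdown, at −1.79. The 7 rises became as few as 4 without UV+TiO2 replicate 2 or 3.

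Metal storage genes fell. The ferritin gene ftn-1, an intestinal iron store, had 7.22, 7.09 and 7.14 in UV+TiO2, against 11.44, 11.32 and 11.28 in Control (18.3-fold lower, adjusted p = 3.32e-10). The second ferritin gene ftn-2 fell by 3.36. The second metallothionein gene mtl-2 had 8.22, 7.96 and 8.26 in UV+TiO2, against 9.30, 9.83 and 9.71 in Control (2.77-fold lower). All UV+TiO2 arrays were below all Control arrays for these genes. Over the list of metallothioneins, ferritins and metal transporters 13 of 33 genes fell, 8 of them at least 2-fold, and 7 rose, none of them 2-fold. The rises included the cadmium-responsive gene cdr-4 (0.96) and the zinc transporter gene zipt-15 (0.68), whose second probe set did not pass (0.23, adjusted p = 0.137).

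Genes of DNA damage and repair rose by modest amounts. polh-1, for a polymerase that copies past UV lesions, had 9.57, 9.64 and 9.49 in UV+TiO2, against 8.87, 8.45 and 7.98 in Control (2.20-fold, adjusted p = 0.000221). egl-1, whose BH3-domain product starts apoptosis, had 7.64, 7.86 and 7.73 in UV+TiO2, against 6.77, 6.79 and 7.02 in Control (1.84-fold, adjusted p = 1.52e-05). Neither gene's groups overlapped. Of 25 checkpoint and apoptosis genes 16 rose and 1, the recombinase gene rad-51, fell (−0.29). Its call was lost in 4 of the 14 alternatives. brd-1, whose product pairs with the worm homologue of BRCA1, rose by 1.05, and brc-2 by 0.95. The p53 homologue cep-1 did not pass (0.47, adjusted p = 0.0628), and it passed in 4 of the 14 alternatives, with differences of 0.59 to 0.81. Of 18 genes for nucleotide excision repair and translesion synthesis 10 rose and none fell, and without UV+TiO2 replicate 1 or 3 as few as 6 rose. The damage-recognition gene xpa-1 was 0.50 higher (adjusted p = 0.0337), and it lost its call in 5 alternatives. Without Control replicate 2 as many as 2 repair genes were lower, and without UV+TiO2 replicate 2 or Control replicate 1 or 2 the number of lower checkpoint genes was between 0 and 2.

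Most genes of the replication, mitosis and meiosis lists rose, beside 32.4% of all genes. Of 35 genes for replication licensing and the fork 24 rose and none fell, with a median of 0.45, led by psf-3 (1.26) and psf-1 (0.81), subunits of the GINS complex of the replicative helicase. Of 55 mitosis and kinetochore genes 34 rose and none fell (median 0.50), among them the spindle checkpoint gene mdf-1 (1.66), the centriole kinase gene zyg-1 (1.59) and the kinetochore gene kbp-4 (1.22). Of 35 genes for meiotic pairing and crossover 22 rose and 1 fell (median 0.52), including zim-3 (1.09), for a pairing-centre protein, and the polo-like kinase gene plk-2 (0.98). With each of the 6 arrays left out in turn, at most 1 gene of each of these lists was lower. The sperm marker levels given above were also higher, and whether the changes are related was not tested. Histone genes were split, with 20 of 34 higher and 9 lower. The core histone genes his-67, his-64 and his-38 rose by 2.16, 1.71 and 1.71, the last pair on probe sets shared within the family. The linker histone genes hil-7 and hil-1 fell by 3.14 and 2.78, and the replication-independent H3.3 gene his-71 by 2.71.

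Most sperm genes rose. Of 33 major sperm protein and related genes 32 rose and 28 were at least 2-fold higher, with a median of 1.24, and 1 gene was lower without Control replicate 1. Major sperm protein drives the crawling of sperm and signals oocytes to mature. All 23 msp genes rose, by 0.99 to 1.59, but all 23 were read by probe sets shared among related sequences and are not 23 separate measurements. Among family members with a probe set of their own, ssp-34 rose by 1.95. Other small sperm families differed: of 6 nspd genes 5 rose, led by nspd-4 (1.99), while all 4 nspb and all 5 nspe genes were lower, with nspe-1 at −3.25. Of 29 spe genes, needed for sperm formation, 16 rose and none fell, with a median of 0.35.

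Genes of the oocyte changed less. Of 30 oocyte and eggshell genes 16 rose and 2 fell, none by 2-fold. The chitin synthase gene chs-1, for the eggshell, rose by 0.99, the RNA-binding gene puf-11 by 0.78, and the yolk receptor gene rme-2 by 0.57. The 2 falls were oma-1 (−0.26, adjusted p = 0.0493) and perm-4 (−0.31), for which 1 of 3 other probe sets was higher (0.40). Without any 1 of the 6 arrays only 1 of the 30 was lower. Among 5 measured yolk protein genes vit-1 stood alone in its rise, while vit-2 fell by 0.37, with means of 12.41 in UV+TiO2 and 12.78 in Control. Of 40 germ granule and Argonaute genes 20 rose and 5 fell. The Argonaute gene alg-5 had 11.14, 11.14 and 10.81 in UV+TiO2, against 9.43, 9.63 and 9.1 in Control (3.12-fold), and wago-1, of the germline small-RNA system, rose by 0.98. sago-1, a secondary Argonaute of the soma, fell by 2.05. alg-1, of the microRNA pathway, fell by 1.80 on the brightest of its 3 probe sets, while the other 2 did not pass.

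Of the lists for making RNA and protein some had larger shares of risen genes than the 32.4% of all genes, and others lay near it. Of 57 mitochondrial ribosomal protein genes 41 rose and none fell (median 0.45), with mrps-21 at 1.34 and mrps-17 at 1.07. Of 65 splicing genes 39 rose and 2 fell (median 0.42), with snrp-27 at 1.1, and of 21 RNA polymerase subunit genes 12 rose and 1 fell (median 0.44), with rpac-19, of polymerases I and III, at 1.29 and rpb-12 at 1.12. Of 40 nuclear pore and transport genes 20 rose and 1 fell (median 0.30), led by the importin gene imb-1 (1.42), and of 32 aminoacyl-tRNA synthetase genes 15 rose and none fell (median 0.33). Cytosolic ribosomal protein genes stayed near the background, with 18 of 62 higher, none by 2-fold, and a median of 0.13. Their count depended on scaling and on single arrays: it became 50 with centring and as low as 10 without UV+TiO2 replicate 2. Of 39 translation factor genes 11 rose and 3 fell, with iff-2, a gene for the hypusinated factor eIF5A, at −0.86. Without UV+TiO2 replicate 1 or 2 as few as 6 of these rose, and without Control replicate 1 as many as 5 fell. Near the shares of all genes too, of 28 ribosome biogenesis genes 10 rose and 4 fell, with the exosome gene exos-3 at 1.1, and of 92 chromatin modifier genes 30 rose and 11 fell, with the DREAM complex gene lin-52 at 1.07 and the demethylase gene jmjd-3.1 at −1.36. In the splicing, polymerase, pore and biogenesis lists the few lower genes (2, 1, 1 and 4) numbered between 0 and 5 with each of the 6 arrays left out in turn. Without Control replicate 2 and without Control replicate 3, 1 mitochondrial ribosomal and 1 synthetase gene were lower.

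Cuticle genes separated by kind. Of 128 genes named col, for the collagens of the cuticle, 73 rose and 19 fell, 20 of the rises and 7 of the falls at least 2-fold (median 0.40). col-142, col-143 and col-139 rose by 2.19, 1.92 and 1.71, and the adult collagen gene col-19 had a mean of 12.84 ± 0.06 (SD, n = 3) in UV+TiO2 and 11.74 ± 0.22 in Control (2.14-fold). Beside dpy-14 and col-74, the deep falls were dpy-17 (−4.29), col-165 (−4.09) and col-48 (−3.68). Of 18 collagen genes named for body shape 11 rose and 5 fell, and dpy-5 rose by 1.12. Cuticlin and zona pellucida genes fell in 17 of 40 cases, with cut-2 at −3.37 and noah-2, of the apical matrix, at −3.27, and 4 rose. Those rises became 1 to 7 without UV+TiO2 replicate 1 or Control replicate 1 or 3.

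Genes that act at moults fell. Of 41 moulting genes 26 fell, 18 of them at least 2-fold, with a median of −0.78. The protease inhibitor gene mlt-11 fell by 3.45 on the brightest of 4 probe sets, of which only the dimmest did not pass (0.14, adjusted p = 0.306), and the patched-related gene ptr-23 and mlt-8 had differences of −2.74 and −2.50. Only 4 rose, led by ptr-2 (0.61), and without UV+TiO2 replicate 3 or Control replicate 1 or 3 the number was 2 to 7. The hatching protease gene hch-1 had a mean of 6.48 ± 0.12 in UV+TiO2 and 10.09 ± 0.18 in Control, and of 36 astacin metalloprotease genes 12 fell and 7 rose. Of 54 hedgehog-related genes 21 fell and 10 rose, 14 and 1 of them at least 2-fold. Their median of −0.10 turned to 0.03 with centring and was −0.27 without the dimmest 30% of probe sets, and 19 rose without Control replicate 3. wrt-1 and grl-15 had differences of −3.09 and −3.06, and grd-3 rose by 1.33.

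Neuropeptide lists had the largest shares of fallen genes among the 76 lists. Of 25 genes for FMRFamide-like peptides 21 fell, 20 of them at least 2-fold, and none rose (median −1.72). flp-11, for peptides that promote sleep, had 5.76, 5.42 and 5.67 in UV+TiO2, against 8.54, 9.0 and 9.17 in Control (9.73-fold lower, adjusted p = 1.07e-08). flp-10 and flp-16 fell by 3.33 and 3.30. The groups did not overlap for these peptides. Of 61 other neuropeptide genes 51 fell and 2 rose (median −1.44), with nlp-51 at −4.0 and nlp-35 at −3.55. Without UV+TiO2 replicate 1 or 2 or Control replicate 1 or 2 there was 1 rise. This list was drawn by gene symbol and also holds nlp genes for epidermal antimicrobial peptides, such as nlp-29. The machinery of transmission fell too, with 19 of 30 genes lower and 5 higher (median −0.69). Among these were the SNAP-25 gene ric-4 (−2.79), for vesicle fusion, the peptide-processing carboxypeptidase gene egl-21 (−2.76) and the glutamate decarboxylase gene unc-25 (−2.64), for making GABA. unc-31, for release of dense-core vesicles, was 0.63 higher.

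Receptors, channels and cilia of neurons did not share that depth. Of 79 nicotinic and related channel genes 19 fell and 15 rose, and their median of 0.05 turned to −0.04 with quantile normalization. The glutamate-gated chloride channel gene glc-1 fell by 3.12. Potassium channel genes numbered 11 lower and 11 higher of 66 (median 0.04, or −0.02 after quantile normalization), and between 4 and 17 rose with each of the 6 arrays left out in turn. The calcium-activated channel gene slo-1 fell by 2.32. Of 54 genes for sensory cilia 14 fell and 3 rose, and 9 rose without Control replicate 3. Their median of −0.06 turned to 0.07 with centring. Of 1271 chemoreceptor genes 443 were higher and 7 lower, but only str-204 was 2-fold higher (1.02), and most had low levels. Their median of 0.24 stands beside 0.15 for all genes, and the number higher was 1060 with centring and between 198 and 684 without UV+TiO2 replicate 1 or 3 or any 1 Control array. The olfactory receptor gene odr-10 fell by 0.85.

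Muscle, pharynx and intestine lists fell. Of 28 genes of pharyngeal muscle and gland 20 fell and 3 rose, 15 falls being at least 2-fold (median −1.35), and 5 rose without Control replicate 3. Differences were −3.30 for abu-14, −3.05 for phat-5 and −4.0 for dod-6. Of 33 genes of body wall muscle filaments and attachments 18 fell and 5 rose (median −0.54), with unc-95, of dense bodies, at −1.92 and the troponin genes tnt-3 and tni-1 at −1.80 and −1.63. The alpha-actinin gene atn-1 rose by 0.75, and without UV+TiO2 replicate 1 or 3 or Control replicate 3 as few as 2 of these genes rose. Of 25 intestinal genes 20 fell and 2 rose (median −1.12). The intermediate filament gene ifb-2, of the intestinal lumen's terminal web, had 7.75, 7.37 and 7.67 in UV+TiO2, against 10.51, 10.62 and 10.49 in Control (7.71-fold lower, adjusted p = 5.72e-10). The cathepsin B-like gene cpr-1 fell by 2.00. The 2 intestinal genes that rose were P-glycoprotein genes, pgp-3 (1.80) and pgp-1 (0.41). The intestinal and pharyngeal marker levels given earlier share genes with these lists.

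Lysosomal genes fell. Of 52 genes for lysosomal proteases and the vacuolar ATPase 32 fell and 6 rose (median −0.50). The acid ceramidase gene asah-1 fell by 2.46, the cathepsin Z gene cpz-2 by 2.25 and the DNase II gene nuc-1, which degrades DNA of dead cells, by 2.11. Of 18 subunit genes of the vacuolar ATPase, the proton pump of acidic organelles, 12 fell, and the protease gene cpr-9 rose by 1.25. Autophagy genes were mixed, with 9 of 29 lower and 6 higher, and their median of −0.11 turned to 0.02 with centring and 0.05 without Control replicate 1. hlh-30, the gene of the factor that drives lysosomal and autophagy genes, fell by 2.62 on the brightest of 3 probe sets, of which the dimmest did not pass (−0.14, adjusted p = 0.42).

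Metabolic genes fell more often than they rose in most lists. Of 16 glycolysis genes 10 fell and 2 rose (median −0.56), with the aldolase gene aldo-1 at −1.92 and the lactate dehydrogenase gene ldh-1 at −1.33. pck-1, for the entry step of gluconeogenesis, had a mean of 9.81 ± 0.12 in UV+TiO2 and 12.36 ± 0.13 in Control. Of 75 genes for fatty acid breakdown, the glyoxylate cycle and gluconeogenesis 35 fell and 15 rose, including falls of acs-14 (−2.49) and acox-3 (−2.38) and a rise of acdh-2 (1.24). Of 34 genes for fatty acid synthesis 13 fell and 9 rose. The lipid regulator gene sbp-1 fell by 1.17 and the desaturase gene fat-3 by 1.23, while fat-7, for another desaturase, rose by 0.85. Of 20 citrate cycle genes 9 fell and 4 rose, none of the falls 2-fold. Of 20 one-carbon and methionine cycle genes 11 fell and 3 rose, with the cystathionine gamma-lyase gene cth-2 at −3.10 and the phosphocholine pathway gene pmt-1 at −2.14, and 6 rose without Control replicate 1. Of 64 respiratory chain genes 21 were higher (32.8%), near the 32.4% of all genes. In the same list 8 were lower (12.5%, beside 22.2% of all genes), and the median was 0.07. The copper chaperone gene cox-17 rose by 0.99 and the complex III gene ucr-2.1 fell by 1.11. The trehalase gene tre-5 fell by 2.09, and among 9 lipid binding protein genes 3 rose and 4 fell, from lbp-2 (1.13) to lbp-1 (−1.24). The median of 11 trehalose and glycerol genes (−0.04) turned to 0.09 with centring, and that of the lipid binding genes (0.13) to −0.35 without the dimmest 30% of probe sets.

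Immune lists differed in direction. Of 18 saposin-like genes 10 fell and 1 rose (median −0.53), with spp-31 at −3.79 and spp-18 at −3.41, and as many as 3 rose without UV+TiO2 replicate 2 or Control replicate 1 or 3. Among 16 lysozyme genes 5 were lower, such as ilys-4 (−3.12) and lys-1 (−1.81), and 3 higher, and their median of −0.01 turned to 0.12 with centring and was −0.68 without the dimmest 30% of probe sets. Of 220 C-type lectin genes 76 rose, none 2-fold, and 39 fell, 26 of them at least 2-fold, led by clec-1 (−4.07) and clec-83 (−3.47). The number of lectin rises was 47 without UV+TiO2 replicate 1, and 42 and 50 without Control replicate 1 or 2. By contrast 5 of 8 genes named irg for their infection response rose, all at least 2-fold, with irg-1 at 1.66 and irg-8 at 1.51 beside irg-2, and 1, irg-3, fell (−1.28). Of 21 caenacin and fipr peptide genes 9 fell and 6 rose, the median of 0.01 turning to −0.05 with quantile normalization and to −0.87 without the dimmest 30% of probe sets, and as few as 3 rose without UV+TiO2 replicate 3 or Control replicate 1. fipr-24 rose by 2.31 and cnc-3 fell by 2.47. Among 23 pals genes, a family tied to intracellular infection, 6 rose and 4 fell, and as few as 2 rose without UV+TiO2 replicate 2 or 3 or Control replicate 1 or 2. F-box A genes rose in 55 of 171 cases and F-box B and C genes in 46 of 139, both near the share of all genes, with fbxa-163 (2.56), fbxa-3 (1.96) and fbxc-50 (1.81) at the top. A second fbxc-50 probe set did not pass (0.31, adjusted p = 0.0622). F-box A genes were lower in 14 cases, and in 9 without UV+TiO2 replicate 3. Of 85 MATH and BTB genes 16 rose and 14 fell, and as few as 8 fell without UV+TiO2 replicate 1, 2 or 3 or Control replicate 1.

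Signalling genes fell in the insulin and TGF-beta lists. Of 24 insulin-like peptide genes 13 fell and 3 rose (median −0.51), with ins-1 at −1.84 and ins-17 at −1.65, and the rises numbered 1 to 5 without UV+TiO2 replicate 3 or Control replicate 1 or 3. The insulin pathway factor gene daf-16 fell by 0.49 on the brightest of 4 probe sets, of which the dimmest did not pass (0.18, adjusted p = 0.176). Among 9 dod genes 3 rose and 3 fell, and their median of 0.08 turned to −0.04 with array weights. Of 19 TGF-beta genes 12 fell and 1, daf-8, rose (median −0.73), with the body size regulator gene sma-9 at −1.87 and the ligand gene unc-129 at −1.78. Of 27 Wnt genes 11 fell and 7 rose, and the median of −0.03 turned to 0.10 with centring. The Wnt ligand genes cwn-1 and lin-44 fell by 1.39 and 1.29 and the receptor gene cfz-2 by 1.75, while the Dishevelled gene dsh-2 rose by 0.85. The STAT gene sta-1 fell by 2.07, with means of 4.51 ± 0.07 in UV+TiO2 and 6.58 ± 0.76 in Control. Of 254 nuclear hormone receptor genes 94 fell, 40 at least 2-fold, and 37 rose. nhr-68, of propionate metabolism, fell by 3.65 and nhr-57, a target of the hypoxia factor, by 1.07, while nhr-67 rose by 1.24. The receptors' median of −0.05 turned to 0.08 with centring and was −0.27 without the dimmest 30% of probe sets, and 18 to 57 rose without UV+TiO2 replicate 1 or 3 or any 1 Control array.

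Developmental timing and patterning genes divided. Of 14 heterochronic genes 5 fell and 3 rose, and 1 rose without UV+TiO2 replicate 3 or Control replicate 1. Their median of 0.06 turned to −0.01 without Control replicate 1. hbl-1, which times larval and adult fates, had 7.54, 7.38 and 7.48 in UV+TiO2, against 10.59, 11.24 and 10.93 in Control (10.9-fold lower, adjusted p = 1.78e-09). Its dimmer probe set was lower by less (−0.48, adjusted p = 0.0164). blmp-1, a timing factor for epidermal genes, fell by 2.77 on its brighter probe set, the other not passing (0.25, adjusted p = 0.0729). daf-12, a steroid receptor gene, was lower on its brightest probe set (−1.92) and higher on another (0.37, adjusted p = 0.0214), and the dimmest did not pass. Of the 30 embryo patterning genes, 4 of the 10 falls were at least 2-fold, including the epidermal GATA factor gene elt-3 (−2.27) and the muscle factor gene unc-120 (−2.01), while the posterior homeobox gene pal-1 rose by 0.79 on the brightest of 3 probe sets, the other 2 not passing.

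The X chromosome held more of the falls than the autosomes. Of 2351 measured X-linked genes 408 (17.4%) were at least 2-fold lower in UV+TiO2, against 7.82% to 9.92% on the 5 autosomes. At least 2-fold higher were 1.4% on X and 2.43% to 4.05% on the autosomes. The median difference was −0.04 on X and 0.16 to 0.20 on the autosomes. Outside the neuron, muscle, cuticle, intestine and germline lists, 16.6% of X-linked and 9.08% of autosomal genes were at least 2-fold lower. The lists name only some genes of each tissue, so other genes of the same tissues remain in these shares. Among genes of the neuron, muscle, cuticle and intestine lists the shares were 25.2% on X and 7.56% on the autosomes. The neuron lists include 1271 chemoreceptor genes at low levels (median 4.75 in Control), none of them at least 2-fold lower. Only 206 genes of the 4 kinds of list lie on X. Most chemoreceptor genes therefore count among the 1851 autosomal ones and lower the autosomal share. In worms the X chromosome is largely silent in the germ line and rich in genes of somatic tissues. What part that had in these shares was not tested.

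**Figure D5:**
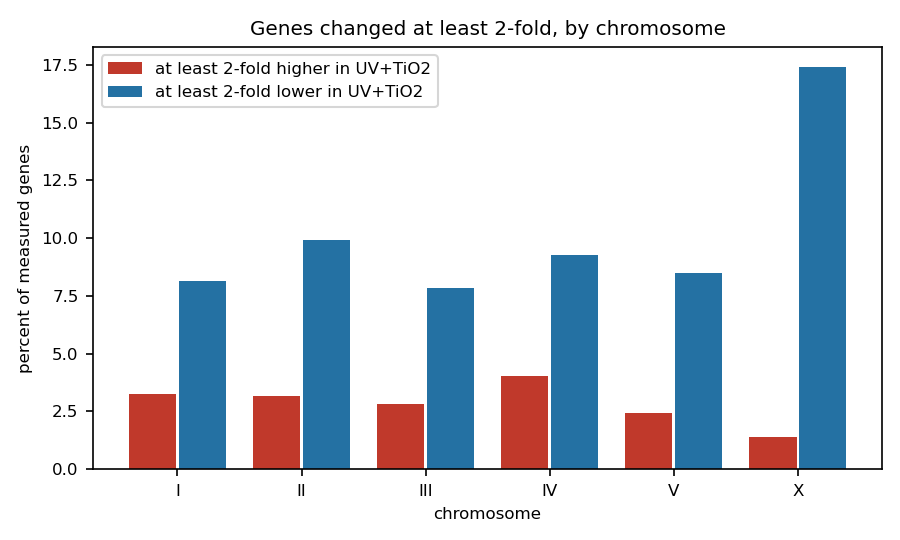
Percent of measured genes on each chromosome (horizontal axis) that were at least 2-fold higher (red) or at least 2-fold lower (blue) in UV+TiO2 than in Control. The X chromosome has the tallest bar for falls, 17.4%, and the shortest for rises, 1.4%.

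UV+TiO2 worms were also set against worms given UV alone, to see which of these changes depended on TiO2 under irradiation. By limma 20 of 22548 probe sets differed (0.0887%), all of them lower in UV+TiO2, and 1384 (6.14%) had an unadjusted p under 0.05. With 1 probe set per gene 20 genes differed (0.117%). The count was unstable: it was 9, 3 and 3 without UV+TiO2 replicate 1, 2 or 3, 2, 2 and 69 without UV replicate 1, 2 or 3, and 1856 with array weights. Of the 2188 genes that were at least 2-fold changed against Control, 13 differed from UV alone. A difference that misses the threshold does not show that the groups act alike. Both comparisons with Control use the same 3 Control arrays, so their values are only set side by side here.

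Of the genes chosen by rule from the comparison with Control only cpg-9, cnc-8 and grl-21 differed from UV alone. cpg-9 had 8.39, 8.54 and 8.63 in UV+TiO2, against 9.44, 9.42 and 9.14 in UV (log2 −0.81, adjusted p = 0.0183), and it stood 3.31 above Control in UV+TiO2 and 4.13 above Control in UV. The caenacin gene cnc-8, of a family of epidermal antimicrobial peptides, had 7.41, 7.31 and 7.46 in UV+TiO2, against 8.15, 8.18 and 8.01 in UV (−0.72, adjusted p = 0.0125), with differences from Control of −2.25 in UV+TiO2 and −1.53 in UV. The hedgehog-related gene grl-21 had 6.51, 6.49 and 6.48 in UV+TiO2, against 6.94, 6.95 and 6.91 in UV (−0.44, adjusted p = 0.0459), with differences from Control of −2.86 in UV+TiO2 and −2.42 in UV. No UV+TiO2 array reached the UV range for these genes. In worms given TiO2 alone, grl-21 was also lower than in Control (log2 −0.60, limma's adjusted p = 0.0394). A lower grl-21 value with TiO2 was therefore not limited to irradiated worms. The peptide gene nlp-29, chosen after its values were seen as the gene with the largest difference, was 1.58 lower in UV+TiO2 than in UV (adjusted p = 0.0125), on a probe set shared with related sequences. Among the 24 largest rises and falls against Control, the other 23 did not pass against UV. For example, irg-2 had 10.04, 9.84 and 9.89 in UV, and scl-2 had 6.71, 6.67 and 6.47 in UV, both overlapping their UV+TiO2 values.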

How the data were processed

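RNA from whole worms was measured on Affymetrix C. elegans arrays, 3 for each of 4 groups. The authors deposited 1 table of log2 values; per the submitters' processing notes GCOS, Affymetrix Expression Console and RMA were used, without stated versions. That method adjusts background, normalizes arrays to each other and sums probes, so a change shared by most genes is partly removed. Of 22625 probe sets 77 control sets were left out. Probe sets were named through the platform annotation: 20766 had 1 symbol, 887 several and 895 none, and 20701 symbols matched RefSeq. Sets shared by related sequences cannot separate those genes. The names of 5484 sets end in s_at and those of 1227 in x_at, which can mark such sets. Among the genes named above, ctl-2, ftn-1, ftn-2, hsp-70, cpg-9 and F53B2.8 were also read by sets ending in s_at, and they are not the only ones. Where a gene had several sets, the one with the highest mean over 12 arrays was used. The gene and list counts depend on that choice. Of 1288 genes with more than 1 called set in UV+TiO2 against Control, 163 had calls in opposite directions. Of 94 genes chosen by rule that had other sets, 10 had a set called the other way. The files hold no counts, and the 3 arrays per group limit the precision.

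The deposited log2 values were fitted by limma (3.58.1, under R 4.3.3) with its lmFit and eBayes functions, all 12 arrays as 4 groups, with Benjamini-Hochberg adjustment over 22548 probe sets and a threshold of 0.05. In data simulated for UV+TiO2 against Control, with 200 of 22548 probe sets changed, 85% of 2-fold and 63% of 1.5-fold changes were recovered. In the real comparison 54.5% of probe sets passed. The adjusted threshold depends on the share that changed, so these recovery rates do not carry over to it.

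The text names the 12 largest rises and falls without overlap of arrays, up to 3 of each for every list, a set of stress and stage genes whatever their value, up to 5 genes each way by the crossing rule, those of them that passed against UV, and neighbours of the largest changes. The list examples and the crossing genes were likewise eligible only without overlap of the groups. Where the text says that groups of such genes did not overlap, this follows from the choice. The comparison, the 76 lists and the rule were chosen with earlier results of these data known. List genes without a measured probe set of their own are left out of the counts. The 14 alternatives were other scalings, filters and variance settings, the replicate block, a fit on just the compared arrays, and leaving out single arrays; leaving out UV arrays was added after seeing the data.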

Additional observations from a re-analysis of the deposited data

Results flagged for a closer look

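Between UV+TiO2 and UV, limma's test of the difference itself passed for 4 of the genes named in the text, all lower in UV+TiO2. The log2 differences were −1.58 for nlp-29, −0.81 for cpg-9, −0.72 for cnc-8 and −0.44 for grl-21. The count of such genes depends strongly on single arrays, as given for the same comparison above.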

How the results depend on the processing

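Of 430 called results for named genes, 382 kept call and direction in all 14 alternatives, 48 lost the call in at least 1, and 1, the proteasome gene rpn-6.2, turned to 0.027 with quantile normalization. sod-3, which did not pass, turned to 0.13 with centring, 0.12 with array weights, 0.08 without UV+TiO2 replicate 2 and 0.17 without Control replicate 3, within a range of −0.10 to 0.17 over single arrays left out. phat-7, which did not pass either, ranged from −0.34 without Control replicate 1, where it passed, to 0.026 without Control replicate 3. With centring 11811 probe sets were higher and 976 at least 2-fold higher, and with array weights 1856 differed between UV+TiO2 and UV. The weights of UV replicates 1, 2 and 3 were 1.015, 5.819 and 0.677, so replicate 2 counted most. Those of UV+TiO2 replicates 1, 2 and 3 were 1.386, 1.276 and 1.590. The cause of these changed counts was not tested. Leaving out 1 array gave 5444 to 8144 higher, 4570 to 5074 lower, 585 to 779 at least 2-fold higher and 2201 to 2378 at least 2-fold lower probe sets, and 2 to 69 between UV+TiO2 and UV. Same-numbered UV+TiO2 and Control arrays correlated at 0.010, −0.153 and 0.110 in their deviations. These values show no pairing by number, but 3 of them cannot exclude one. For Control and UV the values were 0.501, 0.085 and 0.473, and for Control and TiO2 −0.714, −0.232 and −0.249. With the replicate number as a block 6951 were higher, 5002 lower, 644 at least 2-fold higher and 2251 at least 2-fold lower. In that fit 17 probe sets differed between UV+TiO2 and UV. Genes near the array's floor cannot show falls, and the 3 arrays per group may be technical repeats. A planned search for motifs in promoters was not run, since no promoter sequence was used here.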
